A study of Mus musculus with 10 samples.

Results

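Mitochondria are made and reshaped under the control of a small set of regulators, and the mRNA levels of 10 of them are described here in 5 lines of mouse embryonic stem cells (ESCs). They were taken by symbol from the 21853 gene rows of each table, and all 10 were listed: the coactivators Ppargc1a and Ppargc1b, the transcription factors Nrf1, Esrra and Esrrg, the mitochondrial DNA (mtDNA) packaging factor Tfam, the fusion GTPases Mfn1, Mfn2 and Opa1, and the fission GTPase Dnm1l. Loss of Gys1 went with a higher level of Mfn1 and a lower level of Esrra, both in cells with intact Prkaa1 and in cells targeted at it. The call of Esrra in GKO was lost without naïve ESCs 1 or GKO 1. Esrra was only 0.16 below the median log2 difference of the other genes of its chromosome in GKO, and the part of the chromosome was not tested. In AKO, where Prkaa1 alone was targeted, none of the 8 regulators that could be tested passed the test. Primed ESCs had less Nrf1, Tfam and Mfn1 and more Mfn2 than naïve ESCs, so that the large excess of Mfn1 over Mfn2 in naïve ESCs was close to parity in primed ESCs. Opa1 differed little in any line. Ppargc1b was lower in GKO, DKO and primed ESCs, which is a description only, since it entered the test through the lines where it was high.

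As background, PGC-1α and PGC-1β, the products of Ppargc1a and Ppargc1b, bind to transcription factors such as NRF1 and the estrogen-related receptors (ERRs) and raise the transcription of nuclear genes for respiration. One product of this programme, TFAM, coats mtDNA and starts its transcription. Mitofusins (MFN1 and MFN2) join outer membranes, OPA1 joins inner membranes and shapes cristae, and DRP1, the product of Dnm1l, constricts and divides mitochondria. Naïve and primed ESCs are known to differ in the shape of their mitochondria and in their use of respiration, and AMPK, an energy sensor, acts on PGC-1α and on receptors of DRP1.

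The lines were naïve ESCs (J1, labelled WT), AKO (AMPK KO), GKO (GYS1 KO), DKO (AMPK and GYS1 KO) and primed ESCs (PJ1, labelled WT), with 2 libraries each and 10 in all. AKO, GKO and DKO were made from J1 and kept in the naïve medium, which holds serum, LIF and the inhibitors of MEK1 and GSK3β called 2i. AKO was made with CRISPR and a donor plasmid against Prkaa1, which encodes AMPKα1, and enriched by sorting for its red fluorescent marker, whereas GKO clones carry a small indel in an exon of Gys1, the muscle glycogen synthase. Which clones gave the 2 libraries of a line is not stated, so differences between clones and the effect of a knockout cannot be told apart. Primed ESCs grew in serum replacement with bFgf and Activin on Matrigel, so that state and medium cannot be told apart either. The comparisons ask what loss of glycogen synthase, of AMPK and of both did to these regulators, and where primed ESCs stand.

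Levels are TPM, which is corrected for transcript length and scaled within a library. Differences are on the log2(TPM + 1) scale, with SE and Benjamini-Hochberg adjusted p from limma over the 12060 genes that reached 1 TPM in 2 libraries or more, and a gene is said to rise or fall where the adjusted p is under 0.05. The depth behind TPM is unknown, and nothing says that the 2 libraries of a line came from separate cultures, so p-values measure only the spread between these libraries. For a single gene, 2 libraries against 2 allow no two-sided exact p below 0.333. Prkaa1 measured 15.5 and 16.6 TPM in naïve ESCs, 12.2 and 12.0 in GKO, 7.24 and 6.94 in AKO and 2.30 and 2.04 in DKO. It was thus lower in GKO too, where it was not targeted (-0.38, limma adjusted p = 0.00155). Prkaa1 is called intact here only in the sense that it was not targeted. Prkaa2, which encodes the other catalytic subunit, AMPKα2, was present in each line. It was at 2.38 to 3.29 TPM in the lines in naïve medium and 8.30 and 9.38 TPM in primed ESCs. These mRNA levels thus do not show that the AMPK KO lines lack AMPKα as a whole. The paper examined AMPK protein in the knockout lines by immunoblot, which is not assessed here. Gys1, whose indel need not remove its mRNA, measured 9.70 and 9.98 TPM in GKO, 12.1 and 11.7 in DKO and 11.5 and 10.8 in naïve ESCs, so its mRNA level is no check of either knockout. The 8 pluripotency markers of the naïve list summed to 2430 to 2710 TPM in the 4 lines in naïve medium and to 713 to 763 TPM in primed ESCs. Pou5f1, Sox2 and Nanog made nearly all of the primed sum, with Pou5f1 at 517 and 431 TPM. Zfp42, Esrrb, Klf4, Tfcp2l1 and Tbx3 were at 0.024 to 2.78 TPM in primed ESCs. The 7 primed markers summed to 340 to 345 TPM in primed ESCs against 32.9 to 46.9 TPM elsewhere. Dnmt3b made most of each sum, at 222 and 254 TPM in primed ESCs and 21.5 to 41.3 TPM elsewhere. Among the lines in naïve medium it was highest in DKO, where Otx2, Pou3f1 and Lef1 were lowest. Otx2 was at 2.39 and 2.98 TPM in DKO against 5.28 to 6.51 TPM in the other lines in naïve medium. The primed libraries stood apart from each other: Fgf5, Fgf8 and T were at 10.7, 20.6 and 8.97 TPM in primed ESCs 1 and at 0.447, 1.36 and 0.786 TPM in primed ESCs 2. T was not particular to primed ESCs. It was at 13.2 to 19.1 TPM in naïve ESCs, AKO and GKO and at 4.938 and 4.885 TPM in DKO. In GKO the 5 trophoblast markers summed to 47.7 to 48.7 TPM, against 27.4 to 30.7 TPM in the other lines in naïve medium. Tfap2c made most of this, at 23.2 and 24.3 TPM in GKO against 6.29 to 7.40 TPM in those lines. Cdx2 was at 6.62 and 7.27 TPM in GKO and as high in DKO (6.73 and 6.86 TPM), whereas Gata3 was lower in GKO than in the other lines in naïve medium, Eomes was not higher and Elf5 was near 0. The 6 fibroblast or feeder markers summed to 7.97 to 9.22 TPM in GKO, 9.10 to 15.3 TPM in primed ESCs and 2.33 to 3.37 TPM elsewhere. Thy1 made most of the GKO sum, at 7.14 and 8.48 TPM, with Col1a2 and Col3a1 at 0.086 TPM or less. Primed ESCs also had Col1a2, at 4.18 and 4.84 TPM. Dcn and Postn were near 0, and the part of either list in the results was not tested.

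Among the coactivators, Ppargc1a (chr5:51611592-51725068 of GRCm39, minus strand) was practically silent. It was listed at 0 in 5 libraries and at no more than 0.011 TPM in the others, so it stayed under the low-value filter. Ppargc1b (chromosome 18) was the only member of the pair to reach 1 TPM in any library. It measured 1.71 and 1.68 TPM in naïve ESCs, 1.84 and 1.90 in AKO, 0.693 and 0.885 in GKO, 0.817 and 0.844 in DKO, and 0.401 and 0.507 in primed ESCs. The libraries thus formed 3 levels without overlap, with naïve ESCs and AKO on top, GKO and DKO below them and primed ESCs at the bottom. The GKO mean was 0.465 times the naïve mean (log2 difference -0.59, SE 0.0814, adjusted p = 0.000367), the DKO mean 0.489 times (-0.56, adjusted p = 0.000646) and the primed mean 0.267 times (-0.89, adjusted p = 6.82e-06). Ppargc1b passed the filter only through naïve ESCs and AKO, the 4 libraries where it reached 1 TPM, and so had to be lower elsewhere to some degree; the pseudocount also compresses it, and with 0.1 in place of 1 the difference in GKO was -1.025. GKO and DKO did not differ detectably (-0.035, adjusted p = 0.76). Pprc1, the third coactivator of the family, was far more abundant and was named here for its role after its values were seen. It fell from 102 and 101 TPM in naïve ESCs to 72.0 and 67.9 TPM in GKO (adjusted p = 2.87e-05), 81.3 and 82.4 TPM in DKO (adjusted p = 0.000677) and 52.2 and 51.4 TPM in primed ESCs (adjusted p = 7.91e-08). Pprc1 lies on chromosome 19, whose other tested genes had a median difference of -0.40 in GKO, -0.27 in DKO and -0.45 in primed ESCs. Pprc1 was 0.13, 0.04 and 0.51 below these medians, and the part of the chromosome in its fall was not tested.

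**Figure D1:**
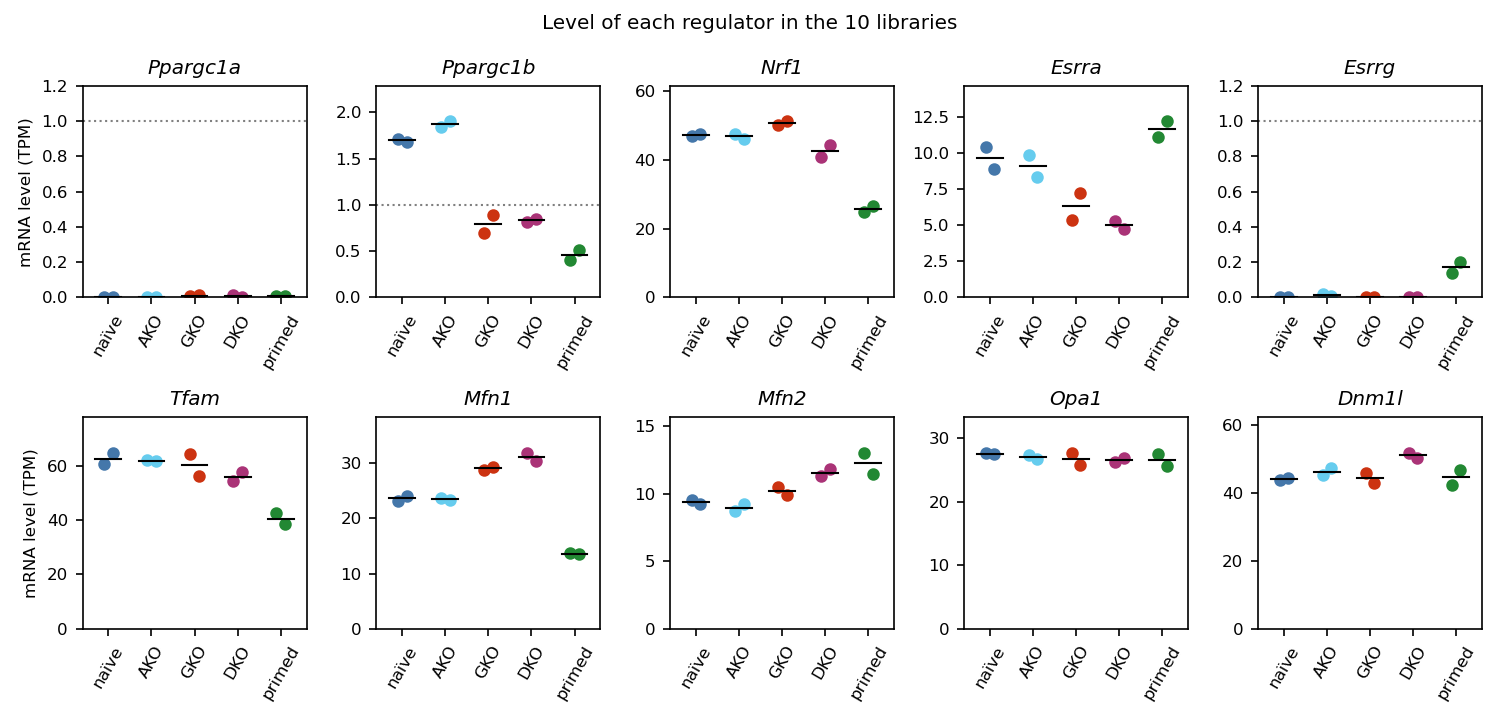
Level in TPM (vertical axes, each from 0) of the 10 regulators in the 2 libraries of each line; points are libraries, bars are their means and the dotted line marks the filter at 1 TPM. Ppargc1b lay above the filter in naïve ESCs and AKO and below it in the other lines, Mfn1 was highest in GKO and DKO, and Opa1 hardly varied.

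Nrf1 (chr6:30047892-30153462, plus strand), which encodes an activator of nuclear genes for respiration, was well expressed in every line. It measured 47.0 and 47.6 TPM in naïve ESCs, 47.6 and 46.0 in AKO, 50.2 and 51.2 in GKO, 40.9 and 44.4 in DKO, and 25.0 and 26.5 in primed ESCs. Primed ESCs stood well below the other lines, at 0.544 times the naïve mean (-0.85, SE 0.0525, adjusted p = 4.7e-07). The differences in the knockouts were small. The difference from naïve ESCs was 0.10 in GKO (adjusted p = 0.145) and -0.15 in DKO (adjusted p = 0.0469), and GKO exceeded DKO by 0.25 (SE 0.0525, adjusted p = 0.00538). The call in DKO was lost in 14 of 19 alternatives. The effect of Gys1 loss with Prkaa1 intact, GKO minus naïve, exceeded that with Prkaa1 targeted, DKO minus AKO, by 0.23 (SE 0.0743, adjusted p = 0.049), a call lost in 11 of 19 alternatives. The median of the other 548 tested genes of chromosome 6 was 0.14 in GKO against naïve ESCs, 0.15 in GKO against DKO, 0.12 in the difference of effects and -0.39 in primed ESCs, where 59.9% of the genes of that chromosome were called lower. Nrf1 thus lay 0.04 below its chromosome in GKO and 0.46 below it in primed ESCs, and the part of the chromosome in the result was not tested.

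The ERRs followed 3 different courses. Esrra (chr19:6888338-6899336, minus strand), which encodes ERRα, the main partner of PGC-1 in respiratory gene control, measured 10.5 and 8.92 TPM in naïve ESCs, 9.83 and 8.32 in AKO, 5.38 and 7.22 in GKO, 5.26 and 4.73 in DKO, and 11.1 and 12.2 in primed ESCs. Every library of GKO and DKO was below every library of the other lines. GKO had 0.65 times the naïve mean (-0.56, SE 0.133, adjusted p = 0.00729) and DKO 0.516 times (-0.83, SE 0.133, adjusted p = 0.00107). In GKO the call was lost without naïve ESCs 1 (-0.45, adjusted p = 0.0601) or without GKO 1 (-0.38, adjusted p = 0.0567), whereas in DKO it held in 19 of 19 alternatives. The other 392 tested genes of chromosome 19 had a median difference of -0.40 in GKO and -0.27 in DKO, and 66.9% and 56.2% of the genes of that chromosome were called lower. Esrra was 0.16 below this median in GKO and 0.57 below it in DKO, and the part of the chromosome in its fall was not tested. In primed ESCs Esrra was 1.2 times the naïve mean, which did not pass the test (0.25, adjusted p = 0.115) and did so with TPM rescaled over the listed genes (0.42, adjusted p = 0.0173) and with median-ratio scaling (0.33, adjusted p = 0.0468). The median of the other genes of chromosome 19 was -0.46 there.

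Esrrg (chr1:187340988-187947082, plus strand), which encodes ERRγ, was listed at 0 in naïve ESCs, GKO and DKO, at 0.017 and 0.009 TPM in AKO, and at 0.140 and 0.199 TPM in primed ESCs, and did not pass the filter. Esrrb, the third receptor and a factor of naïve pluripotency, was by far the most abundant ERR in the lines in naïve medium. It rose from 186 and 174 TPM in naïve ESCs to 234 and 232 TPM in GKO (0.37, adjusted p = 0.000158) and to 238 and 242 TPM in DKO (0.41, adjusted p = 0.000117). In primed ESCs Esrrb was at 0.236 and 0.214 TPM (-7.20). It passed the filter only through the lines in naïve medium and is itself a naïve marker, so this fall is a description only. The ratio of Esrrb to Esrra in TPM within a library was 17.8 and 19.5 in naïve ESCs, 19.9 and 23.6 in AKO, 43.4 and 32.1 in GKO, 45.2 and 51.2 in DKO, and 0.0212 and 0.0175 in primed ESCs. Esrra was thus the only ERR above 1 TPM in primed ESCs, and the ratio of Esrra to Ppargc1b was 27.7 and 24.1 there against 4.37 to 8.15 in the other lines.

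Tfam (chr10:71061287-71074110, minus strand) was the most abundant of the 10 in 9 libraries. It measured 60.6 and 64.9 TPM in naïve ESCs, 62.0 and 61.7 in AKO, 64.4 and 56.2 in GKO, 54.5 and 57.6 in DKO, and 42.6 and 38.5 in primed ESCs. The lines in naïve medium overlapped or nearly so, and only primed ESCs fell past the test, to 0.647 times the naïve mean (-0.62, SE 0.0743, adjusted p = 4.64e-05). The difference from naïve ESCs was -0.06 in GKO (adjusted p = 0.539) and -0.16 in DKO (adjusted p = 0.111), so that a change of Tfam was not detectable in either line. Tfam and Nrf1 had an r of 0.94 over the 10 libraries, and Tfam and Mfn1 an r of 0.78; the libraries share a line in pairs and the primed libraries set much of either value, so these are descriptions.

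The promoters of these genes were searched for the motifs of the factors above, as a description of sequence. RefSeq gave promoters on GRCm38.p6, an earlier build than the positions given above, for 9 of the 10 regulators in 16 windows, and the 250 bases before each start were read on both strands. CCGGAAGT, a motif of the GA-binding protein GABP that is also called NRF2, was found before the start of Tfam and of Mfn1 and in 2.88% of all 32851 promoters. A motif of NRF1, a GCGC on each side of A and any base, was found before the start of Opa1 and in 3.74% of all promoters. AAGGTCA, the ERR motif, was in none of the 16 windows and in 4.08% of all promoters. TGACGT, the core of the cAMP response element, was in windows of Ppargc1a and Mfn2 and in 6.47% of all promoters. No motif overlapped another. A match in this window is a run of letters and not a shown site. The 3 promoters with the longer motifs follow 5′ to 3′ with the motif in capitals, since they hold the only matches of these motifs among the regulators. Neither window of Nrf1 held any of the 4 motifs.
Tfam, chr10:71238045-71238294, minus strand: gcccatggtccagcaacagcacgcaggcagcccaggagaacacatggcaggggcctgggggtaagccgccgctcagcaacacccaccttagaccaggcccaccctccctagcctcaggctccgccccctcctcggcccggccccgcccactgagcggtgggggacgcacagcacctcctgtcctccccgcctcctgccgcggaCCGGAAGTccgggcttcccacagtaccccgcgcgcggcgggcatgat
Mfn1, chr3:32529232-32529481, plus strand: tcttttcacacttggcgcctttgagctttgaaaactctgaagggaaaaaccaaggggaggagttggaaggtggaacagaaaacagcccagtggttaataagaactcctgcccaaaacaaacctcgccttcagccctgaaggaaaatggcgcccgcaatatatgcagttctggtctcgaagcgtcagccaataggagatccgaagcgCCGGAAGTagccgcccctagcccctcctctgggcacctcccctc
Opa1, chr16:29579084-29579333, plus strand: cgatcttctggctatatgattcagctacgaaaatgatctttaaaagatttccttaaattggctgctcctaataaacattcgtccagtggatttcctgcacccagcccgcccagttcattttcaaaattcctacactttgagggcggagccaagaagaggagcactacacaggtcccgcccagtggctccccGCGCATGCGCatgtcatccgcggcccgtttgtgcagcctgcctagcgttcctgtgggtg

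In the Tfam sequence the motif starts 47 bases before the start, in Mfn1 44 bases and in Opa1 59 bases. Gabpa, which encodes the DNA-binding subunit of GABP and was named for its role after its values were seen, measured 58.7 and 58.4 TPM in naïve ESCs, 61.6 and 60.3 in GKO, 59.2 and 55.5 in DKO, and 29.6 and 27.7 in primed ESCs. It fell in primed ESCs (-1.01, SE 0.05, adjusted p = 1.14e-07). In GKO the difference was 0.06 (adjusted p = 0.37), which passed with TPM rescaled over the listed genes (0.18, adjusted p = 0.0354) and with quantile normalization (0.15, adjusted p = 0.0352). Whether GABP or NRF1 acts on any of these genes was not tested.

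Mfn1 (chr3:32583599-32645888, plus strand), the mitofusin with the stronger tethering activity, differed between lines in both directions. It measured 23.2 and 24.0 TPM in naïve ESCs, 23.7 and 23.3 in AKO, 28.7 and 29.4 in GKO, 31.9 and 30.4 in DKO, and 13.7 and 13.6 in primed ESCs. The libraries of GKO and DKO lay above all others and those of primed ESCs below all others. The rise was 1.23 times in GKO (0.29, SE 0.0477, adjusted p = 0.00108) and 1.32 times in DKO (0.38, SE 0.0477, adjusted p = 0.000279), and the primed mean was 0.577 times the naïve mean (-0.75, SE 0.0477, adjusted p = 5.79e-07). All 3 calls held in 19 of 19 alternatives. The other tested genes of chromosome 3 had a median of -0.02 in GKO and -0.01 in DKO. Mfn1 thus departed from naïve ESCs in the opposite direction to primed ESCs when Gys1 was lost, and GKO and DKO did not differ detectably (-0.10, adjusted p = 0.132).

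Mfn2 (chr4:147955508-147989585, minus strand), which also links mitochondria to the endoplasmic reticulum, measured 9.56 and 9.27 TPM in naïve ESCs, 8.73 and 9.24 in AKO, 10.5 and 9.94 in GKO, 11.3 and 11.8 in DKO, and 13.0 and 11.5 in primed ESCs. It rose in primed ESCs (1.3 times, 0.35, SE 0.0729, adjusted p = 0.0018) and in DKO (1.23 times, 0.27, SE 0.0729, adjusted p = 0.0147), and in GKO the difference was 0.11 (adjusted p = 0.249). The call in DKO was lost without either naïve library (adjusted p = 0.0515 without naïve ESCs 1 and 0.0835 without naïve ESCs 2) and without DKO 2 (adjusted p = 0.0847). In GKO the difference passed with TPM rescaled over the listed genes (0.23, adjusted p = 0.0345). The neighbours in the order of Mfn2, from primed ESCs through DKO, GKO and naïve ESCs to AKO, did not differ from each other past the test.

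Within a library, the ratio of Mfn1 to Mfn2 in TPM was 2.43 and 2.59 in naïve ESCs, 2.72 and 2.52 in AKO, 2.73 and 2.96 in GKO, 2.83 and 2.56 in DKO, and 1.05 and 1.18 in primed ESCs. The 4 lines in naïve medium were close together, and primed ESCs were apart from all of them. The sum of both mitofusins behaved otherwise, at 32.8 and 33.3 TPM in naïve ESCs, 39.2 and 39.3 in GKO, 43.2 and 42.2 in DKO, and 26.7 and 25.0 in primed ESCs. These ratios and sums are descriptions from 2 libraries a line, with no test.

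**Figure D2:**
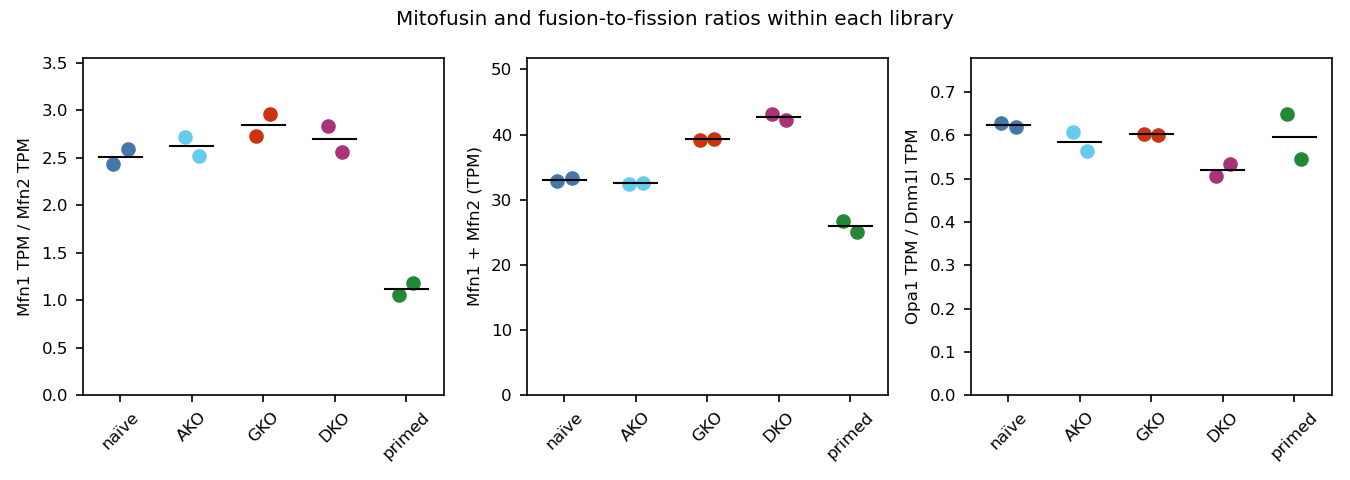
Ratio of Mfn1 to Mfn2, sum of Mfn1 and Mfn2 in TPM, and ratio of Opa1 to Dnm1l (vertical axes, from 0) in the 2 libraries of each line; points are libraries and bars their means. Mfn1 exceeded Mfn2 by 2.43 to 2.96 times in the lines in naïve medium and by 1.05 and 1.18 times in primed ESCs.

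Opa1 (chr16:29398108-29473858, plus strand) lay between 25.6 and 27.7 TPM in all 10 libraries, the narrowest range of the 8 tested regulators. Its difference from naïve ESCs was -0.04 in GKO, -0.05 in DKO, -0.03 in AKO and -0.05 in primed ESCs, with an SE of 0.0549 and adjusted p between 0.386 and 0.94. The sign of these small values turned with the scaling in GKO, DKO and primed ESCs. A difference of the size seen for Mfn1 would have been several times this SE. On the fission side, Dnm1l (chr16:16128677-16176904, minus strand) measured 44.0 and 44.5 TPM in naïve ESCs, 45.2 and 47.4 in AKO, 45.9 and 42.9 in GKO, 51.9 and 50.3 in DKO, and 42.4 and 46.9 in primed ESCs. DKO was the highest line, without overlap with the others. Its rise over naïve ESCs was 1.15 times (0.20, SE 0.059, adjusted p = 0.0203), and GKO was lower than DKO (-0.20, SE 0.059, adjusted p = 0.0237). Both calls rest on few libraries: the rise was lost without naïve ESCs 1 or 2 or DKO 1 or 2 (adjusted p = 0.0526 to 0.103), and the difference from GKO without DKO 1 or 2 or GKO 2 (adjusted p = 0.0616 to 0.148). The ratio of Opa1 to Dnm1l was 0.507 and 0.535 in DKO and 0.545 to 0.65 in the other lines.

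DRP1 is held on the outer membrane by receptors, of which Fis1 and Mff were named for their role after their values were seen. Fis1 fell from 103 and 102 TPM in naïve ESCs to 84.2 and 79.8 TPM in GKO (-0.32, adjusted p = 0.00205) and to 77.8 and 79.1 TPM in DKO (-0.38, adjusted p = 0.000939). Mff measured 55.3 and 54.5 TPM in naïve ESCs and 53.9 and 54.7 in GKO, and fell to 40.9 and 44.5 TPM in DKO (-0.36, adjusted p = 0.00154) and to 46.3 and 41.4 TPM in primed ESCs (-0.32, adjusted p = 0.00102). In DKO a higher Dnm1l level thus stood beside lower levels of both receptors.

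Counted together, 3 of the 8 tested regulators passed the test in GKO against naïve ESCs (1 higher, 2 lower), where 51.7% of all tested genes did. In DKO there were 6 (3 higher, 3 lower) against 46.0% of all genes, and in primed ESCs 5 (1 higher, 4 lower) against 80.0% of all genes. Without naïve ESCs 1 or without naïve ESCs 2, the count in DKO was 3. In AKO it was 0 of 8 in limma, with 0 also at an unadjusted p under 0.05, against 0.224% of all genes. GKO against DKO gave 2 (Nrf1 and Dnm1l) against 43.5%, and DKO against AKO gave 4 (Ppargc1b and Esrra lower, Mfn1 and Mfn2 higher) against 46.3%. The difference between the effects of Gys1 loss with Prkaa1 intact and with Prkaa1 targeted gave 1 (Nrf1) against 25.8%. Since most of these shares are large and Ppargc1b had to differ, the counts say little of the regulators as a list. The median difference of the 8 was -0.02 in GKO, -0.099 in DKO, -0.0165 in AKO and -0.3355 in primed ESCs, and that of all tested genes -0.01, -0.01, -0.01 and -0.05. With TPM rescaled to 1000000 over the listed genes, the median of all genes moved to 0.095 in GKO and 0.11 in primed ESCs. The share of calls that were higher then moved from 47.7% to 65.7% in GKO. The fall of Esrra and the rise of Mfn1 in GKO kept their direction and call under each of the 3 other scalings tried. Ppargc1b also stayed lower there, which is a description only, since scaling does not change how it passed the filter.

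**Figure D3:**
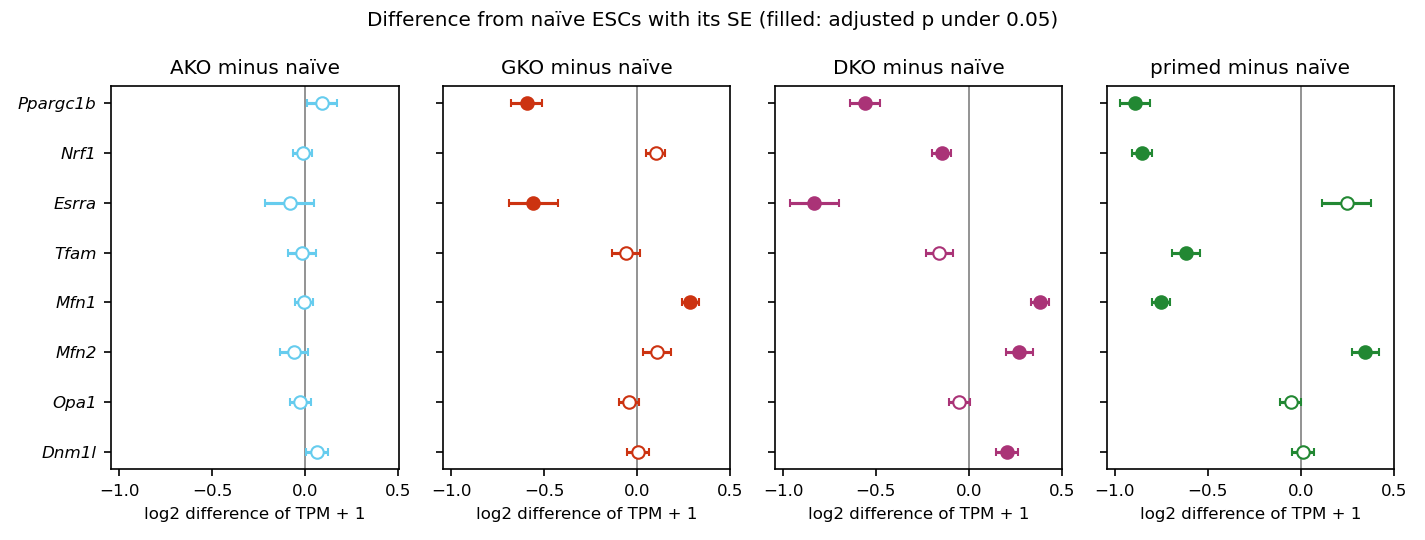
Difference from naïve ESCs on the log2(TPM + 1) scale (horizontal axis) with its SE for the 8 tested regulators in AKO, GKO, DKO and primed ESCs; filled points have an adjusted p under 0.05. No point is filled in AKO, Ppargc1b, Esrra and Mfn1 are filled in GKO, and the primed values of Ppargc1b, Nrf1, Tfam and Mfn1 are the lowest of their rows.

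Leaving out a primed library changed no call of the 8 in primed against naïve ESCs. Without primed ESCs 1, the primed library with more Fgf5 and T mRNA, the differences were -0.84 for Ppargc1b, -0.81 for Nrf1, -0.69 for Tfam, -0.76 for Mfn1 and 0.26 for Mfn2. Without primed ESCs 2 they were -0.95, -0.90, -0.55, -0.74 and 0.43. Over the 5 lines ordered by level, 7 of the 32 neighbouring pairs of the 8 regulators differed past the test. AKO and naïve ESCs were neighbours in 7 of the 8 orders and differed in none.

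**Figure D4:**
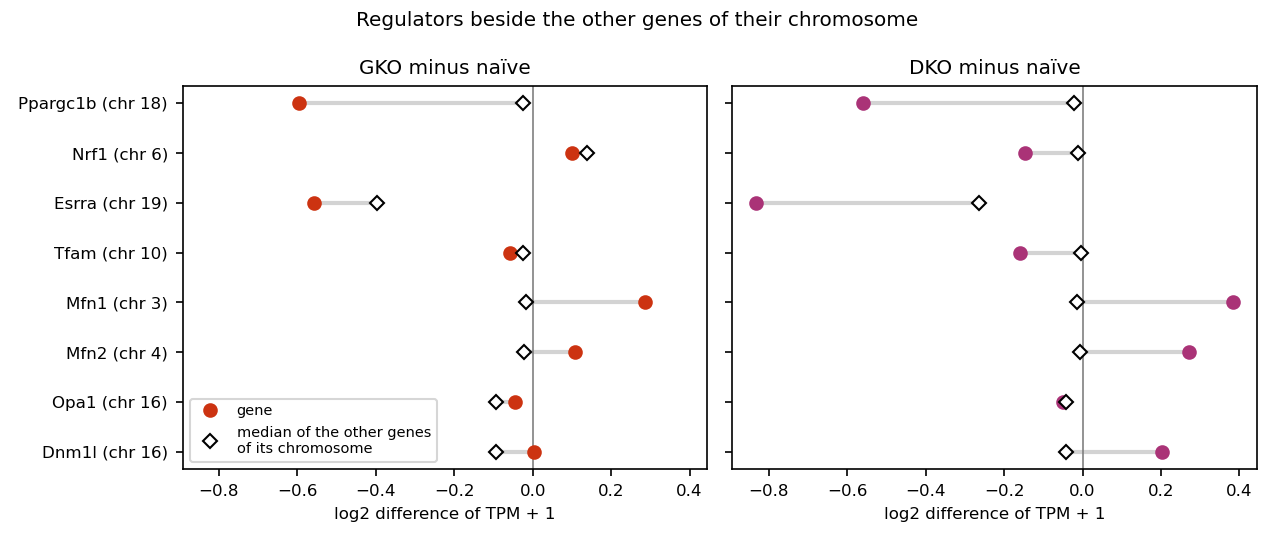
Difference from naïve ESCs on the log2(TPM + 1) scale (horizontal axis) of each tested regulator (filled circles) and the median of the other tested genes of its chromosome (open diamonds) in GKO and DKO. The medians lay near 0 except for chromosome 19, which holds Esrra, and chromosome 6, which holds Nrf1, in GKO.

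The genes that work with these regulators were counted in 7 lists chosen by role. Of all tested genes, 24.7% were called higher and 27.1% lower in GKO, 21.7% and 24.3% in DKO, and 37.4% and 42.5% in primed ESCs. Well expressed genes leaned lower as a whole. Of the 8294 genes with a mean of at least 5 TPM, 1765 were higher and 2781 lower in GKO. In DKO these numbers were 1689 and 2459, and in primed ESCs 2454 and 4092. The medians were -0.063, -0.044 and -0.166, and the lists were not matched to other genes by level. Of 26 tested biogenesis regulators and cofactors, 7 were higher and 8 lower in GKO, 6 and 8 in DKO, and 7 and 13 in primed ESCs, with medians of -0.03, -0.01 and -0.15. The largest fall in DKO was that of Prkaa1, the gene targeted there (0.135 times). In primed ESCs it was that of Esrrb, itself a naïve marker. These 2 entries of the counts were thus fixed by the choice of lines. Thra, a thyroid hormone receptor, rose to 1.48 times the naïve level in GKO (adjusted p = 0.00277) and to 3.6 times in primed ESCs (adjusted p = 2.74e-07) and Yy1, a PGC-1 partner, fell to 0.622 times in GKO (adjusted p = 4e-05). In DKO the coactivator Ncoa3 rose to 1.49 times (adjusted p = 3.24e-05). Of the 25 genes of mtDNA replication and transcription, 6 were higher and 8 lower in GKO, 6 and 7 in DKO, and 3 and 14 in primed ESCs, with medians of -0.03, -0.07 and -0.28. Twnk, the mtDNA helicase, fell from 30.6 and 30.5 TPM in naïve ESCs to 16.2 and 16.1 TPM in GKO (adjusted p = 1.61e-05); it lies on chromosome 19 and was 0.49 below the median of that chromosome. Ssbp1, which coats single-stranded mtDNA, fell to 0.653 times in DKO (adjusted p = 8.08e-05), and Rnaseh1, which removes primers, to 0.472 times in primed ESCs (adjusted p = 4.5e-07). Primpol, a primase, rose to 1.52 times in GKO (adjusted p = 0.0129, lost without naïve ESCs 1 or GKO 2) and to 1.75 times in DKO (adjusted p = 0.003), and Top1mt, the mitochondrial topoisomerase, to 2.6 times in primed ESCs (adjusted p = 1.63e-05).

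Of 12 tested genes of fission, 1 was higher and 6 lower in GKO and in DKO, with medians of -0.16 and -0.19, and 2 were higher and 7 lower in primed ESCs, with a median of -0.27. Slc25a46, an outer-membrane protein, rose to 1.22 times in GKO (adjusted p = 0.00633). Mtfr2 fell to 0.734 times in GKO (adjusted p = 0.01, lost without naïve ESCs 2 or GKO 1) and to 0.533 times in primed ESCs (adjusted p = 6.11e-05). Inf2, a formin that prepares sites of division, rose from 3.55 and 3.28 TPM in naïve ESCs to 6.43 and 6.64 TPM in DKO (adjusted p = 0.000122), and Mtfp1 fell to 0.729 times there (adjusted p = 0.00107). In primed ESCs Spire1, an actin nucleator, rose to 3.01 times (adjusted p = 1.61e-06). Of the 23 genes of fusion and inner-membrane shaping, 1 was higher and 8 lower in GKO, 2 and 7 in DKO, and 3 and 17 in primed ESCs, with medians of -0.04, -0.03 and -0.38. Among them Spg7 and Afg3l2 encode subunits of the m-AAA protease. Spg7 rose in GKO (1.65 times, adjusted p = 2.16e-05), in DKO (1.33 times, adjusted p = 0.000535) and in primed ESCs (1.46 times, adjusted p = 1.93e-05). Afg3l2 fell in primed ESCs to 0.455 times (adjusted p = 9.8e-08). Chchd3, a component of the cristae-organising complex MICOS, fell in DKO from 72.2 and 67.9 TPM to 39.7 and 40.0 TPM (adjusted p = 2.86e-05), and Msto1 fell to 0.64 times in GKO (adjusted p = 1.91e-05).

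**Figure D5:**
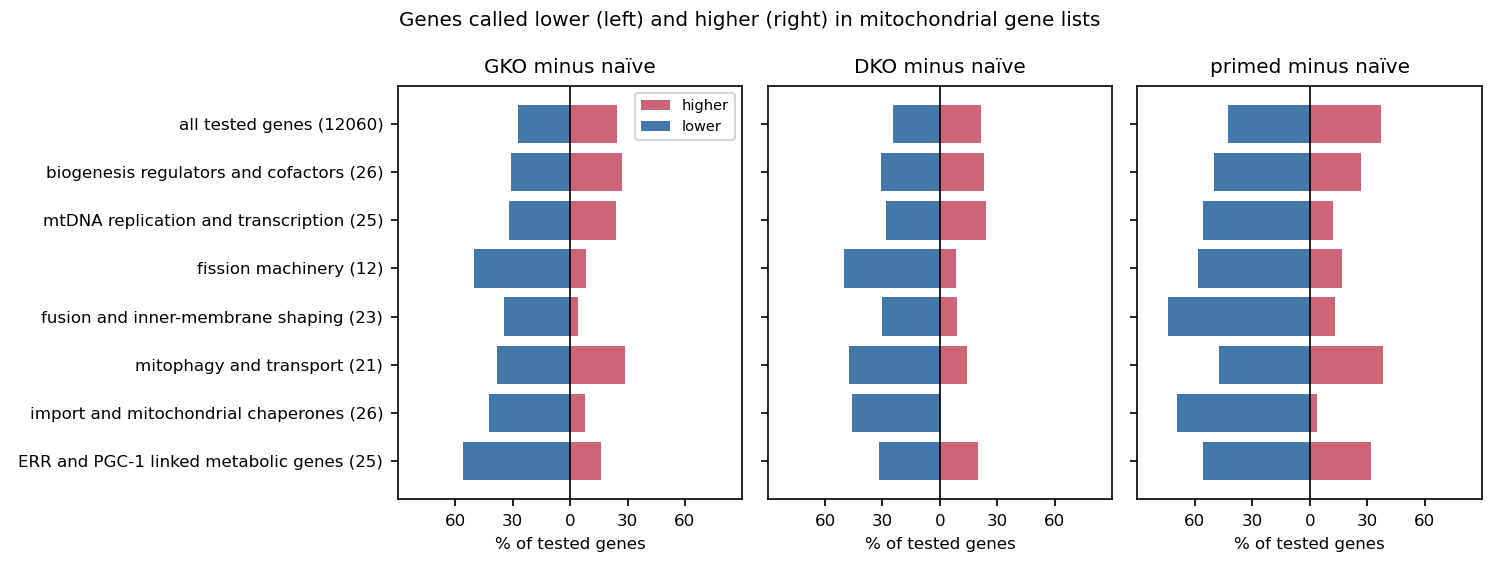
Share in % of the tested genes of 7 mitochondrial lists called higher (right) or lower (left) than naïve ESCs in GKO, DKO and primed ESCs, with all 12060 tested genes on top; the number of tested genes stands in parentheses. In primed ESCs, import (1 higher, 18 lower) and fusion (3 higher, 17 lower) lean to the lower side. Genes with a mean of at least 5 TPM, not drawn here, also lean lower there (2454 higher, 4092 lower).

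Of 21 tested genes of mitophagy and transport, 6 were higher and 8 lower in GKO, 3 and 10 in DKO, and 8 and 10 in primed ESCs, with medians of 0.04, -0.13 and -0.18. Pink1, the kinase that marks damaged mitochondria, rose in GKO from 3.75 and 3.25 TPM to 6.87 and 8.35 TPM (adjusted p = 0.000165), and the DKO libraries had 3.45 and 3.96 TPM. Calcoco2, a mitophagy receptor, rose in DKO to 2.01 times (adjusted p = 1.17e-05) and was nearly absent from primed ESCs, at 0.090 and 0.152 TPM against 24.4 and 23.9 TPM in naïve ESCs. Bnip3, another receptor, rose in primed ESCs to 57.8 and 88.8 TPM from 7.81 and 8.80 TPM (adjusted p = 3.44e-06). The adaptor Sqstm1 fell to 0.586 times in DKO (adjusted p = 8.2e-06), and Rhot2, which couples mitochondria to motors, to 0.626 times in GKO (adjusted p = 3.09e-05). Of 26 genes of protein import and mitochondrial chaperones, 2 were higher and 11 lower in GKO, 0 and 12 in DKO, and 1 and 18 in primed ESCs, with medians of -0.17, -0.18 and -0.48. Tomm22, a receptor of the outer-membrane translocase, fell to 0.535 times in primed ESCs (adjusted p = 6.53e-08), where Timm21 alone rose (1.95 times, adjusted p = 3.13e-06). Timm8a1, a chaperone of the intermembrane space, rose to 1.54 times in GKO (adjusted p = 0.000484). Timm17a, a part of the inner-membrane translocase, fell to 0.699 times in GKO (adjusted p = 0.0114, lost without naïve ESCs 2 or GKO 2) and to 0.572 times in DKO (adjusted p = 0.00138).

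Of 25 tested metabolic genes linked to ERRs and PGC-1, 4 were higher and 14 lower in GKO, 5 and 8 in DKO, and 8 and 14 in primed ESCs. The median was -0.27 in GKO, -0.05 in DKO and -0.31 in primed ESCs. Esrra itself was lower in both DKO libraries than in either GKO library, without passing the test between these lines (adjusted p = 0.127). Acadvl, which starts the oxidation of very long fatty acids, fell in GKO from 12.6 and 12.1 TPM to 5.95 and 6.12 TPM (adjusted p = 1.7e-05), and the DKO libraries had 11.1 and 10.6 TPM. Slc25a4, the ADP/ATP carrier, went the other way, from 111 and 110 TPM in naïve ESCs to 340 and 345 TPM in GKO (adjusted p = 1.25e-07) and 132 and 139 TPM in DKO (adjusted p = 0.00116). In primed ESCs Sod2, the mitochondrial superoxide dismutase, fell to 22.2 and 19.7 TPM from 70.9 and 69.2 TPM (adjusted p = 1.46e-08). Cpt1b, among the 8 genes counted as higher there, was at 6.56 and 12.0 TPM against 0.306 and 0.374 TPM in naïve ESCs. It passed the filter only through primed ESCs and so had to be higher there, which is a description only. Cycs, cytochrome c, fell to 0.717 times in DKO (adjusted p = 0.00325). In AKO the only gene of any list past the test was Prkaa1 itself (-1.08, adjusted p = 0.00121, and 0.0601 with the AKO and naïve libraries alone). The 13 proteins encoded by mtDNA were not analysed here, so that the levels of Tfam and of the mtDNA genes could not be set against what they act on.

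The genes most like each regulator were found by Pearson r of log2(TPM + 1) over the 10 libraries, as a description. For Nrf1 they were Rasa4, Vhl and Itpka (0.998, 0.998 and 0.997), for Mfn1 Aoah, Lactb2 and Nid1 (0.998, 0.997 and 0.996), and for Ppargc1b Dnajb9, Prdx1 and Pcbp2 (0.99, 0.989 and 0.989). For Tfam they were Mrpl45, Mapk14 and Foxp4 (0.988, 0.984 and 0.983), and for Esrra Dlat, Hint1 and Dusp7 (0.98, 0.966 and 0.964). Mfn2 was matched by Vamp3, Dhx8 and Hist1h4i (0.97, 0.968 and 0.964), and Dnm1l by Prkab2, Golph3l and Aldh6a1 (0.952, 0.944 and 0.907). Opa1, whose level hardly varied, had lower values, with Elac2, Cops8 and Taf13 at 0.843, 0.84 and 0.801. Among the regulators themselves, Ppargc1b and Mfn2 had an r of -0.90 and Esrra and Mfn1 of -0.84.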

How the data were processed

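Total RNA of 10 libraries from 5 mouse ESC lines was sequenced. Reads were trimmed with Trim Galore, aligned with STAR and quantified with RSEM, and the authors deposited 1 table of TPM per library, limited to protein-coding genes. The paper names GRCm39, whereas the submitters' processing notes list GRCm38 beside Trim Galore 0.6.6, STAR 2.7.9a and RSEM 1.3.3, so the build behind the files is uncertain; the files hold no positions. The paper and the sample records also name different library kits. TPM is scaled to a fixed sum before the list is limited to protein-coding genes, so a strong rise of some genes lowers the others, and no depth can be read from it. RSEM divides shared reads by estimation. Symbols that a spreadsheet had turned into dates (27) were not mapped back to gene names, and their rows stayed in the data under the same filter. No column of a further sample was found (0).

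Genes that reached 1 TPM in 2 or more libraries (12060 of 21853) were taken as log2 of the deposited TPM plus 1. They were tested by limma 3.58.1 (R 4.3.3), where 1 model held a mean per line and an intensity trend, with Benjamini-Hochberg adjustment within each comparison (threshold 0.05). All comparisons with naïve ESCs share the naïve libraries. The procedure was tested on simulated data.

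The regulators, the lists and the tests were chosen with earlier results of these data known. The further genes named were, in each list, the largest rise and the largest fall past the test in GKO, DKO and primed against naïve ESCs (at least 5 TPM in the higher line, no overlap), each list gene called in AKO, and the 3 genes most like each regulator. Pprc1, Gabpa, Esrrb in the knockouts, Fis1 and Mff were added for their role. Positions are from GRCm39 annotation and promoters from RefSeq on GRCm38.p6. Alternatives were a pseudocount of 0.1, no filter, a filter at a mean of 5 TPM, 3 other scalings, no trend, a block for the replicate number, the compared libraries alone, and each library left out.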

Additional observations from a re-analysis of the deposited data

Results flagged for a closer look

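The effect of Gys1 loss was taken with Prkaa1 intact (GKO minus naïve ESCs) and with Prkaa1 targeted (DKO minus AKO), and genes were singled out where these 2 effects differed in the limma test of the difference itself. Of the 46 regulators and named genes checked, 21 differed at an adjusted p under 0.05, against 25.8% of all tested genes. Many of these genes were named for a large change in GKO or in DKO, so their number is not read as a result. Prkaa1 itself was lower in DKO than in AKO (-1.353, limma adjusted p = 3.39e-06). In the second effect, loss of Gys1 and this further fall of Prkaa1 thus cannot be told apart. Prkaa1 was also lower in GKO than in naïve ESCs (-0.384, limma adjusted p = 0.00155). Loss of Gys1 and that fall cannot be told apart in the first effect either. The values below are the first effect minus the second, on the log2(TPM + 1) scale.

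Among the 8 tested regulators, Nrf1 (0.232) was singled out, with an effect of 0.10 with Prkaa1 intact and -0.13 with it targeted (adjusted p = 0.049). Among the cofactors the values were Thra (0.514), Yy1 (-0.595), Ncoa3 (-0.434), Pprc1 (-0.266) and Prkaa1 (0.969), the last being the gene targeted in AKO and DKO. For mtDNA maintenance they were Twnk (-0.427) and Ssbp1 (0.845). In the fission and fusion lists they were Inf2 (-1.152), Mff (0.424), Spg7 (0.457), Msto1 (-0.637) and Chchd3 (0.43). In mitophagy, transport and import they were Pink1 (0.898), Rhot2 (-0.414), Calcoco2 (-1.396) and Timm8a1 (1.05). Among the metabolic genes they were Slc25a4 (1.307), Acadvl (-0.826), Cycs (0.561) and Sod2 (-0.508). Nrf1, Ssbp1, Chchd3 and Cycs lie on chromosome 6, where the median of this value was 0.12. Twnk and Pprc1 lie on chromosome 19, with a median of -0.13, and Timm8a1 on chromosome X, with 0.13. The part of the chromosome in these values was not tested. Slc25a4 had effects of 1.62 with Prkaa1 intact and 0.31 with it targeted, and Acadvl had effects of -0.93 and -0.10. Calcoco2 and Inf2 had effects of -0.27 and -0.18 with Prkaa1 intact and of 1.13 and 0.97 with it targeted. With 2 libraries in each line, groups were too small to look for single outlying libraries.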

How the results depend on the processing

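The differences of the 8 tested regulators in 7 comparisons were recomputed under 19 alternatives, 1057 values in all: 965 kept direction and side of the threshold, 39 lost and 21 gained a call, and 32 changed sign, of which 0 passed the test. The cause of these changes was not tested. A filter at a mean of 5 TPM gives no value for Ppargc1b.

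Regulators called: with TPM rescaled over the listed genes, 5 in GKO (Nrf1 and Mfn2 added), 1 in GKO against DKO and 11 neighbouring pairs in the orders; with quantile normalization, 1 in GKO against DKO. For the difference of effects it was 0 with a pseudocount of 0.1, no filter, no trend or the replicate block (limma; 1 at an unadjusted p under 0.05 as in the fit reported). Leaving out libraries gave 3 to 6 in DKO (3 without either naïve library), 1 to 3 in GKO against DKO and 0 to 1 for the difference of effects. Genes called in AKO numbered 13, 17, 10 and 8 with a pseudocount of 0.1, the mean filter, the rescaling and the block, 0 with only the AKO and naïve libraries (2011 at an unadjusted p under 0.05), and 1 to 126 with a library left out (1 without AKO 1, 126 without primed ESCs 2). For the difference of effects, 1944 to 4500 genes were called with a library left out. Same-numbered libraries of different lines did not deviate together (r from -0.128 to 0.078 over 10 pairs of lines), so they share only a number. The block changed 2 calls of the regulators, those of Nrf1 in DKO (-0.147, adjusted p = 0.0512) and in the difference of effects (0.232, adjusted p = 0.0554).

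Sign changes with TPM rescaled were Tfam 0.064, Opa1 0.077 and Mff 0.107 in GKO, Opa1 0.016 and Gabpa 0.039 in DKO, Opa1 0.118 and Fis1 0.118 in primed ESCs, Opa1 0.057 in DKO against AKO and 0.019 in the difference of effects. With median-ratio scaling they were Mfn1 0.002 in AKO, Mff 0.022 in GKO, Opa1 0.036 and Fis1 0.036 in primed ESCs, and Opa1 0.002 in the difference of effects. With quantile normalization they were Tfam 0.032, Opa1 0.023 and Mff 0.087 in GKO, Mfn1 0.006 in AKO, Gabpa 0.046 in DKO, Opa1 0.071 and Fis1 0.183 in primed ESCs (Fis1 then called, adjusted p = 0.00628), and Ppargc1b -0.02 and Opa1 0.026 in the difference of effects. With a library left out, values that crossed 0 were, from lowest to highest, Dnm1l -0.044 to 0.052, Tfam -0.155 to 0.037 and Opa1 -0.095 to 0.006 in GKO, Esrra -0.193 to 0.023, Tfam -0.067 to 0.03, Mfn1 -0.028 to 0.017 and Nrf1 -0.037 to 0.009 in AKO, Gabpa -0.074 to 0.016 in DKO, Dnm1l -0.059 to 0.083 and Fis1 -0.146 to 0.034 in primed ESCs (called without primed ESCs 1, -0.146, adjusted p = 0.0152), Opa1 -0.044 to 0.058 and Ppargc1b -0.113 to 0.042 in GKO against DKO, and Tfam -0.015 to 0.178, Ppargc1b -0.022 to 0.133 and Opa1 -0.07 to 0.032 in the difference of effects.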
